A study of Mus musculus with 10 samples.

Results

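The genes described here are those of the solute carrier families SLC1, SLC3, SLC6, SLC7 and SLC38, which carry amino acids and related small molecules across cell membranes. They were taken by gene symbol alone, as every gene whose symbol is Slc1a, Slc3a, Slc6a, Slc7a or Slc38a followed by a number, with 2 SLC6 genes left out. This gave 52 genes of 35288 gene identifiers in the table: 7 of SLC1, 2 of SLC3, 17 of SLC6, 15 of SLC7 and 11 of SLC38. Their RNA was measured in 10 libraries from 6 mice with lung tumors, in 4 groups. RPR2 lung tumors came from 3 mice (JHK1373, JHK1394 and JHK1548) and RPR2 liver metastases from 2 of these (JHK1373 and JHK1394). RPR2;Nfibf/f lung tumors came from 3 mice (JHK1398, JHK1399 and JHK997) and RPR2;Nfibf/f liver metastases from 2 of these (JHK1398 and JHK1399). The RPR2;Nfibf/f mice, which carry floxed alleles of the transcription factor gene Nfib on the RPR2 background, are called Nfib-floxed below. RPR2 is the field's name for mice that develop small cell lung cancer after conditional loss of Rb1, Trp53 and Rbl2, so both genotypes share that background. The labels give no agent, promoter or cell type for the recombination, and no age. The comparisons ask how the floxed Nfib genotype and growth in the liver go with the level of these genes.

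Amino acid transporters feed protein synthesis and supply glutamine, cystine, glycine, arginine and branched-chain amino acids to growing cells. SLC7 light chains reach the cell surface bound to an SLC3 heavy chain, and many of them exchange one amino acid for another, so they depend on the gradients that the sodium-coupled SLC1, SLC6 and SLC38 carriers build. Members of SLC6 also clear GABA, glycine and monoamines from synapses, and small cell lung cancer is a neuroendocrine tumor that expresses many neuronal genes. Liver cells use several SLC38 and SLC6 carriers of their own, among them those for alanine, glutamine, taurine and betaine.

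Levels are given as TPM, the share of transcripts scaled to a fixed total, a length-adjusted unit in which each library sums to 1000000, so that levels of different genes can be set side by side. TPM keeps no read depth, so the depth is unknown and no counting error is attached to a level. Nfib was at 28.3 to 118 TPM in RPR2 lung tumors, 62.8 and 643 in RPR2 metastases, 26.5 to 38.6 in Nfib-floxed lung tumors, and 46.1 and 41.3 in Nfib-floxed metastases. The labels do not give the floxed exons and TPM per gene includes the remaining ones, so these values do not check the genotype. Several libraries stood apart. The metastasis of JHK1398, labelled Nfib-floxed, had its highest correlation with an RPR2 lung tumor (0.9325, JHK1373). Correlations were taken on log2(TPM + 1) over the 15503 genes that averaged 1 TPM or more. The Nfib-floxed lung tumors of JHK1398 (0.8865, with JHK1548) and JHK997 (0.9072, with JHK1373) were also closest to an RPR2 lung tumor. The lung tumors of JHK1394 and JHK1398 held 60565 and 55984 TPM of 5 club cell markers, against at most 12674 in the other 8 libraries, and that of JHK1398 had 12.9% of its TPM from mitochondrial genes against 4.32% to 7.13% elsewhere. The sum of 8 neuroendocrine markers was 2392 and 3646 TPM in the RPR2 metastases and 7574 to 74536 TPM in the other libraries, a sum led by its abundant members: in RPR2 metastases against lung tumors 3 of the 8 lay above 0 and 5 below, and none was called. The sum of 10 hepatocyte markers was 8661 and 8889 TPM in the RPR2 metastases, 95.7 (JHK1398) and 2556 (JHK1399) in the Nfib-floxed metastases and 92.0 to 1243 in lung tumors, with none of the 10 at 0 in any library. In such bulk samples, fewer cells of a type and less RNA per cell cannot be told apart.

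The transporter RNA was concentrated in few genes. Of the 52 genes, 8 averaged 50 TPM or more across the 10 libraries, 13 lay between 10 and 50, 13 between 1 and 10, and 18 below 1. The 5 most abundant held 48.5% of the family TPM and the 10 most abundant 75.9%. They were led by Slc38a2 at a mean of 142 TPM, Slc38a1 at 99.96, Slc38a6 at 99.9, Slc3a2 at 83.8 and Slc6a6 at 83.3 TPM. Next came Slc1a5 at 79.4, Slc38a10 at 72.9, Slc6a9 at 54.9, Slc6a8 at 47.1 and Slc7a6 at 33.8 TPM. The sum over all 52 genes ran from 603 TPM in the Nfib-floxed lung tumor of JHK1398, the library with the highest mitochondrial share, to 1321 TPM in that of JHK997.

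Several of the abundant genes were steady across libraries. The ratio of the highest to the lowest library was 1.77 for Slc38a10, 2.09 for Slc38a7, 2.40 for Slc3a2 and 2.74 for the low but steady Slc7a11. It was under 10 for 20 of the 34 genes that averaged 1 TPM or more, and 50 or more for 9 of them. Those 9 were Slc7a8, Slc6a13, Slc38a3, Slc6a12, Slc38a4, Slc1a1, Slc6a15, Slc6a5 and Slc6a14, 5 of them SLC6 genes.

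**Figure D1:**
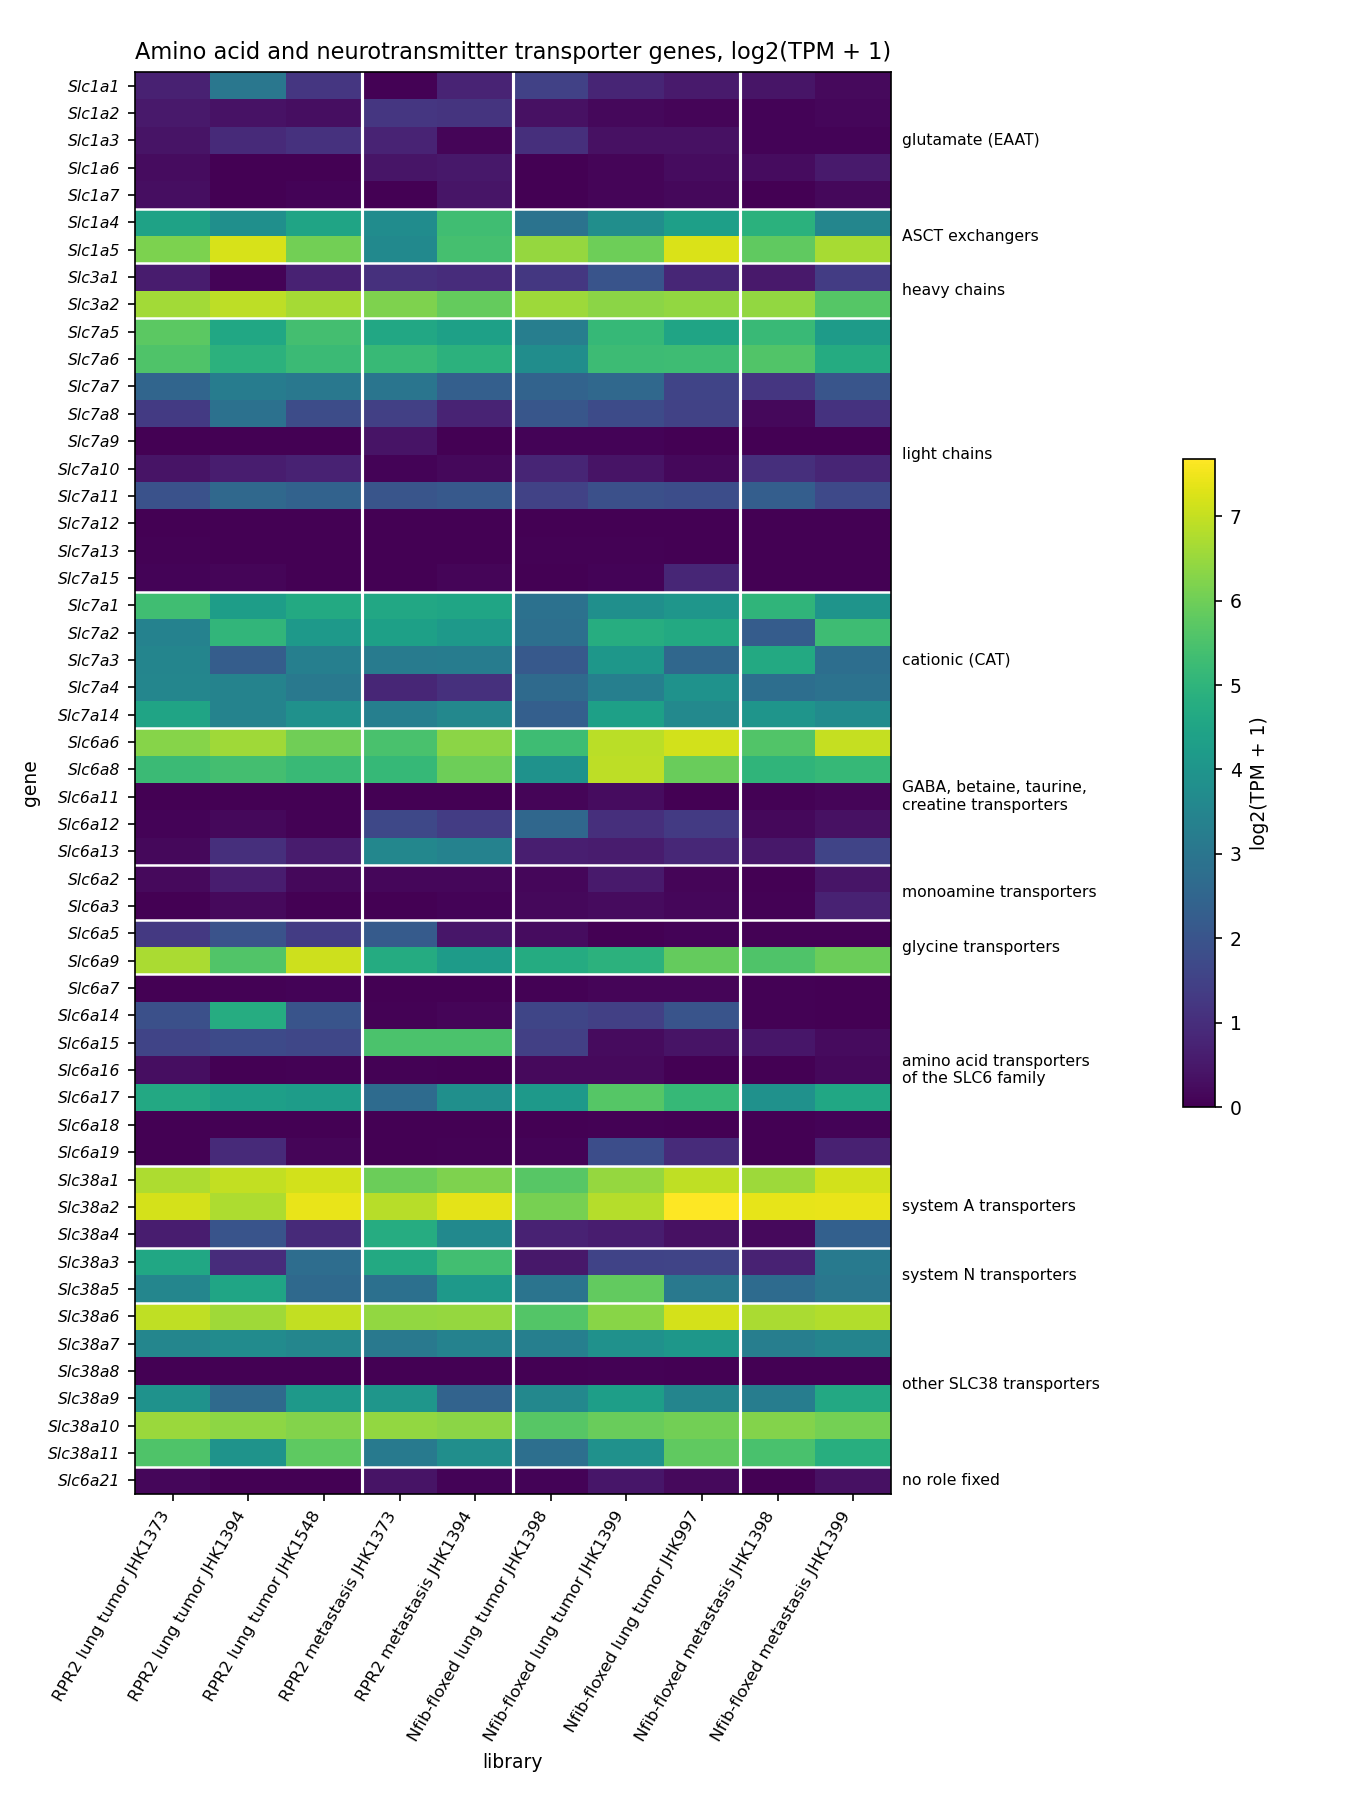
Level of each of the 52 transporter genes (vertical axis, grouped by role) in each of the 10 libraries (horizontal axis) as log2(TPM + 1), with white lines between groups of libraries and of genes. Slc38a1, Slc38a2, Slc38a6, Slc38a10, Slc3a2 and Slc6a6 are bright in all libraries, whereas Slc6a15, Slc6a13 and Slc38a4 are brightest in the RPR2 metastases.

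Of the 18 genes below a mean of 1 TPM, 14 stayed under 1 TPM in every library, and Slc7a12 was listed at 0 in all 10. They include the monoamine transporters Slc6a2 (norepinephrine) and Slc6a3 (dopamine), whose highest values were 0.547 and 0.648 TPM, and the GABA transporter Slc6a11 of glia, with a highest value of 0.205 TPM. The other 10 were Slc1a6, Slc1a7, Slc6a7, Slc6a16, Slc6a18, Slc6a21, Slc7a9, Slc7a13, Slc7a15 and Slc38a8, with Slc7a15 highest at 0.782 TPM. The remaining 4 genes reached 1 TPM in at least 1 library: Slc1a2 (1.34 TPM at most), Slc1a3 (1.15), Slc6a19 (2.55) and Slc7a10 (1.04). None of the 18 was tested.

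Differences were tested with limma on log2(TPM + 1) over the 15503 genes that averaged 1 TPM or more, with Benjamini-Hochberg adjustment over all of them. Of the 52 transporter genes, 34 entered this test. Some of these passed the filter only through the libraries where they are high, among them Slc6a13 through the RPR2 metastases and Slc6a5 through the RPR2 libraries. A gene was called at an adjusted p under 0.05. Where a change is given with ±, it is a difference of mean log2(TPM + 1) with its standard error, which understates the change of genes near 0. Within a group each library came from a different mouse, so the spread is that between mice.

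The largest number of calls came from metastases against lung tumors in RPR2 mice. There, Slc6a15, Slc6a13 and Slc38a4 rose and Slc7a4 and Slc6a9 fell. This made 5 of the 34 tested genes, where 5.61% of all tested genes were called (2.04% higher and 3.57% lower, or 316 and 553 genes). That split depended on the scaling: it was 407 higher and 408 lower under quantile normalization and 394 and 382 under median centring. Between genotypes in metastases, Slc6a15 and Slc6a13 were lower in Nfib-floxed mice and no transporter gene was called higher, so that 2 of 34 were called where 2.04% of all tested genes were (1.13% higher, 0.91% lower). These comparisons share the RPR2 metastases, so the genes found in both do not count as found independently. The interaction, which tests whether the genotype difference in metastases differed from that in lung tumors, called 1 of 34, Slc6a15, on the lower side, where 0.581% of all tested genes were called (0.49% higher and 0.0903% lower). At an unadjusted p under 0.05 the interaction gave 8 of the 34, against 9.68% of all tested genes.

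Between genotypes in lung tumors, limma called none of the 34, and none of the 15503. At an unadjusted p under 0.05 there were 5 of the 34 transporter genes and 7.93% of all tested genes. In Nfib-floxed mice, metastases against lung tumors gave none of 34, where 0.123% of all tested genes were called. At an unadjusted p under 0.05 there was 1 of the 34 there, against 9.39% of all tested genes.

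As a set, the 34 genes are described by their split and median. In RPR2 metastases against lung tumors, 11 lay above 0 and 23 below, with a median of -0.26, where the median of all tested genes was -0.15 (0.05 under quantile normalization and 0.09 under median centring). Their split depended on this too, with 19 above 0 under quantile normalization and 17 under median centring. In metastases between genotypes, 16 lay above 0 and 18 below, with a median of -0.05 against 0 for all tested genes. In lung tumors between genotypes, 24 lay below 0, with a median of -0.46 against -0.10 for all tested genes. Without the Nfib-floxed lung tumor of JHK1398, 16 of 34 lay above 0 and the median was -0.13, against 0.05 for all tested genes. In Nfib-floxed metastases against lung tumors, 17 lay above 0 and 17 below.

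Non-overlap of the 2 groups is frequent with so few libraries. In RPR2 metastases against lung tumors it held for 16 of the 34 genes, 6 higher and 10 lower, and for 46.1% of all tested genes (15.1% higher and 31% lower). Between genotypes in metastases it held for 17 of 34, 9 higher and 8 lower, and for 45.8% of all (23.8% and 22%). Between genotypes in lung tumors it held for 8 of 34, 2 higher and 6 lower, and for 14.5% of all (5.66% and 8.81%). In Nfib-floxed metastases against lung tumors it held for 5 of 34, 1 higher and 4 lower, and for 22.5% of all (7.76% and 14.8%).

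**Figure D2:**
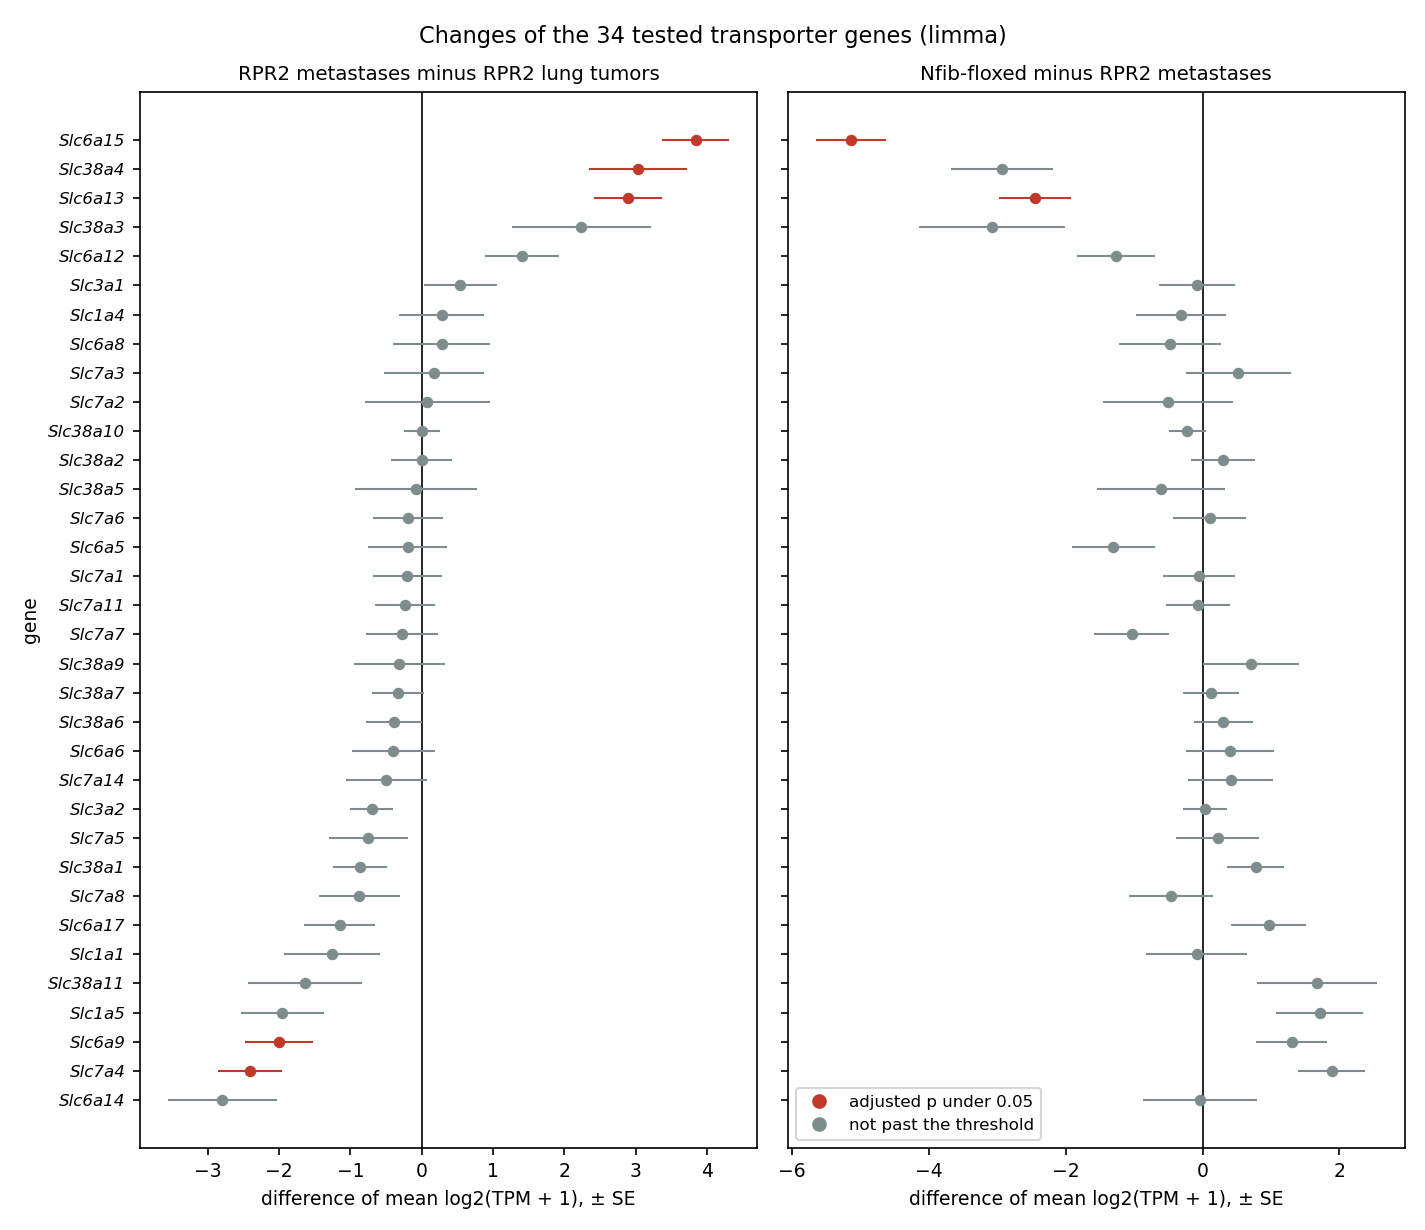
Difference of mean log2(TPM + 1) (horizontal axis, points) with its standard error (bars) for the 34 tested transporter genes (vertical axis), left for RPR2 metastases minus RPR2 lung tumors and right for Nfib-floxed minus RPR2 metastases; red points have an adjusted p under 0.05 by limma. The 3 genes called higher at left run from 2.89 (Slc6a13) to 3.84 (Slc6a15), and Slc6a15 lies farthest from 0 at right, at -5.14; both panels use the RPR2 metastases.

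Among the amino acid transporters of SLC6, Slc6a15 gave the largest differences of the 34 tested genes on the log2(TPM + 1) scale in both comparisons of RPR2 metastases. As ratios of mean TPM, Slc6a14 (181 times lower) and Slc6a12 (25.8 times higher) differed more between RPR2 metastases and lung tumors. Slc6a15 encodes a sodium-coupled carrier of branched-chain amino acids and proline (B0AT2) known mainly from neurons, and lies on the plus strand of chr10:103367783-103419377 (GRCm38). In RPR2 lung tumors it was at 1.98, 2.34 and 2.12 TPM (JHK1373, JHK1394 and JHK1548). In the RPR2 metastases it was at 44.0 TPM in both mice. All 5 Nfib-floxed libraries were below the lowest RPR2 lung tumor: the lung tumors of JHK1398, JHK1399 and JHK997 at 1.76, 0.165 and 0.331 TPM, and the metastases of JHK1398 and JHK1399 at 0.375 and 0.178 TPM.

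The RPR2 metastases stood alone, 20.5 times above the mean of their lung tumors and 159 times above that of the Nfib-floxed metastases. Slc6a15 rose by 3.84 ± 0.47 in RPR2 metastases against lung tumors (adjusted p = 0.00178) and was lower by a difference of -5.14 ± 0.51 in Nfib-floxed than in RPR2 metastases (adjusted p = 0.00123). Both calls held in all 17 alternative settings, with adjusted p from 0.000314 to 0.0209 and from 0.000314 to 0.0155. In lung tumors the genotype difference was -0.95 ± 0.42 (adjusted p = 0.623). The interaction was -4.19 ± 0.66 (adjusted p = 0.0237). The interaction call did not survive leaving out any 1 RPR2 library (adjusted p from 0.0628 to 0.0888) or the Nfib-floxed metastasis of JHK1398 (0.0711).

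Within the same mice, Slc6a15 was higher in the metastasis than in the lung tumor of JHK1373 and JHK1394, by 3.92 and 3.75 on the log2(TPM + 1) scale. In JHK1398 the difference was -1.01, and in JHK1399 the 2 values differed by 0.02. Per 1000 TPM of the 10 hepatocyte markers, the metastases held 5.08 and 4.95 TPM of Slc6a15 in RPR2 mice, 3.92 TPM in JHK1398 and 0.0697 TPM in JHK1399. This ratio, used here and below, was chosen after the values were seen and was not taken for lung tumors. In JHK1398 it divides by only 95.7 TPM of markers, within the lung tumor range of 92.0 to 1243 TPM. The part of hepatocyte RNA in the difference was not tested.

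Slc6a14, a carrier of neutral and cationic amino acids of airway and gut epithelium (ATB0,+), passed no test. It was at 2.64, 26.1 and 3.01 TPM in RPR2 lung tumors and at 2.03, 1.77 and 2.98 TPM in Nfib-floxed lung tumors. The 4 metastases held 0.0389, 0.0780, 0.0399 and 0.0196 TPM. Every lung tumor was thus above every metastasis, in both genotypes. The difference was -2.79 ± 0.76 in RPR2 mice (adjusted p = 0.0612) and -1.65 ± 0.76 in Nfib-floxed mice (adjusted p = 0.550). Its highest value was in the lung tumor of JHK1394, the library with the most club cell marker RNA (60565 TPM), but the lung tumor of JHK1398, with 55984 TPM of these markers, held 2.03 TPM of Slc6a14. Other marker sums also differed between these 2 libraries. JHK1394 was higher than JHK1398 in alveolar type 2 (7380 against 2973 TPM), alveolar type 1 (816 against 266) and macrophage markers (4480 against 1214). It was lower in B and plasma cell (95.2 against 679) and endothelial markers (595 against 1692). The part of normal lung cells in Slc6a14 was not tested. Slc6a14 was among the genes called in RPR2 mice with a pseudocount of 0.1 and without the lung tumors of JHK1394 and JHK1398.

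Slc6a17, a vesicular transporter of neutral amino acids in neurons (NTT4), was at 18.0 to 24.0 TPM in RPR2 lung tumors and at 5.45 and 13.2 TPM in RPR2 metastases, with a difference of -1.15 ± 0.50 (adjusted p = 0.244). In Nfib-floxed mice it was at 17.0, 49.0 and 34.1 TPM in lung tumors and 13.8 and 22.7 TPM in metastases. Slc6a19, the main neutral amino acid carrier of gut and kidney (B0AT1), exceeded 1 TPM only in the Nfib-floxed lung tumor of JHK1399, at 2.55 TPM. Slc6a7, the brain proline transporter, and Slc6a16 and Slc6a18 did not pass 0.217 TPM in any library.

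Of 5 transporters for GABA, betaine, taurine and creatine, 4 were tested, and 1 of them, Slc6a13, rose in RPR2 metastases and was lower in Nfib-floxed metastases. It encodes GAT2, a carrier of GABA and taurine that is prominent in liver cells. It lies on the plus strand of chr6:121300227-121337733, only 5.34 kb from Slc6a12. The 250 bases before the most upstream of its 3 RefSeq starts (GRCm38.p6, chr6:121300038-121300287, plus strand) are shown because this gene and Slc38a4 moved in the same libraries. They hold none of the 6 motifs searched (below), so no base is in capitals. Another of its windows holds the HNF1 core GTTAAT, at position -68.
Slc6a13: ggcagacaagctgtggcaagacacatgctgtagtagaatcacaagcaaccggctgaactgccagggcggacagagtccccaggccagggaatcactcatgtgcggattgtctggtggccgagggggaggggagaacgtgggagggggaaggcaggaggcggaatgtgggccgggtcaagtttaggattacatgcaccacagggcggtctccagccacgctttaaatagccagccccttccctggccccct
Slc6a13 was at 0.131, 1.03 and 0.509 TPM in RPR2 lung tumors and at 10.8 and 9.70 TPM in the RPR2 metastases. The Nfib-floxed lung tumors held 0.565, 0.492 and 0.820 TPM, while its 2 Nfib-floxed metastasis values were 0.421 (JHK1398) and 1.95 TPM (JHK1399). The RPR2 metastases were close to each other and above every other library. The next highest library was the Nfib-floxed metastasis with the higher hepatocyte marker sum. The lung tumor of JHK1399, with 1243 TPM of hepatocyte markers, held 0.492 TPM, below the 1.03 TPM of JHK1394 with 431 TPM of these markers. Slc6a13 passed the filter of 1 TPM only through the RPR2 metastases. Its group means were 0.558 TPM in RPR2 lung tumors, 0.626 in Nfib-floxed lung tumors and 1.19 in Nfib-floxed metastases.

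Slc6a13 rose by 2.89 ± 0.48 in RPR2 metastases (adjusted p = 0.00659), a call held in 15 of 17 alternatives and lost without the RPR2 metastasis of JHK1373 (adjusted p = 0.0524) or JHK1394 (0.0511). In Nfib-floxed against RPR2 metastases the difference was -2.45 ± 0.52 (adjusted p = 0.0432), a call held in only 6 of 17. Leaving out any 1 RPR2 library gave adjusted p from 0.0513 to 0.173. Leaving out the Nfib-floxed metastasis of JHK1398 gave 0.178, and the Nfib-floxed lung tumors of JHK1399 and JHK997 gave 0.0549 and 0.0616. Per 1000 TPM of hepatocyte markers, Slc6a13 was at 1.24 and 1.09 TPM in RPR2 metastases. It was at 4.40 TPM in the metastasis of JHK1398 and 0.764 TPM in that of JHK1399, on either side of the RPR2 values. The value of JHK1398 divides 0.421 TPM by a marker sum of 95.7 TPM, which lay within the lung tumor range. The part of hepatocyte RNA was not tested.

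The neighbouring Slc6a12, the betaine and GABA transporter BGT1 of kidney and liver, had another pattern. It was at 0.0569, 0.131 and 0.0293 TPM in RPR2 lung tumors, 2.17 and 1.55 TPM in RPR2 metastases. In Nfib-floxed mice its level was 4.91, 1.06 and 1.48 TPM in lung tumors and 0.114 and 0.258 TPM in metastases. The genotypes did not overlap in either tissue, with Nfib-floxed above RPR2 in lung tumors and below in metastases. The difference was 1.54 ± 0.46 in lung tumors (adjusted p = 0.595) and -1.26 ± 0.57 in metastases (adjusted p = 0.383), and the interaction of -2.80 ± 0.73 had an adjusted p of 0.187, so none of these passed.

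The taurine transporter Slc6a6 and the creatine transporter Slc6a8 were abundant in every library and were not called. Slc6a6 ran from 37.9 to 143 TPM and Slc6a8 from 14.1 to 121 TPM. The lowest value of each was in the Nfib-floxed lung tumor of JHK1398. In metastases between genotypes the differences were 0.40 ± 0.64 for Slc6a6 (adjusted p = 0.912) and -0.47 ± 0.75 for Slc6a8 (adjusted p = 0.912). Of a list of 10 genes for creatine and taurine synthesis and creatine kinases, 7 were tested. In RPR2 metastases against lung tumors 2 rose and 1 fell, where 2.04% of all tested genes were called higher and 3.57% lower. Gamt, the last enzyme of creatine synthesis, went from 5.78 ± 0.82 TPM (SD, n = 3) to 35.0 ± 3.4 (n = 2), a log2 difference of 2.41 ± 0.38 (limma adjusted p = 0.00569). Ckb, the brain-type creatine kinase, rose by 1.66 ± 0.38 (adjusted p = 0.0292), and Ckmt1, the mitochondrial kinase, changed by -1.90 ± 0.39 (adjusted p = 0.0170). Between genotypes in metastases Gamt alone of the 7 was called, lower in Nfib-floxed mice at -2.32 ± 0.42 (limma adjusted p = 0.0234). Of all tested genes, 2.04% were called there. The 10 hepatocyte markers summed to 8661 and 8889 TPM in RPR2 metastases and to 95.7 and 2556 TPM in Nfib-floxed ones. The part of hepatocyte RNA in Gamt was not tested.

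**Figure D3:**
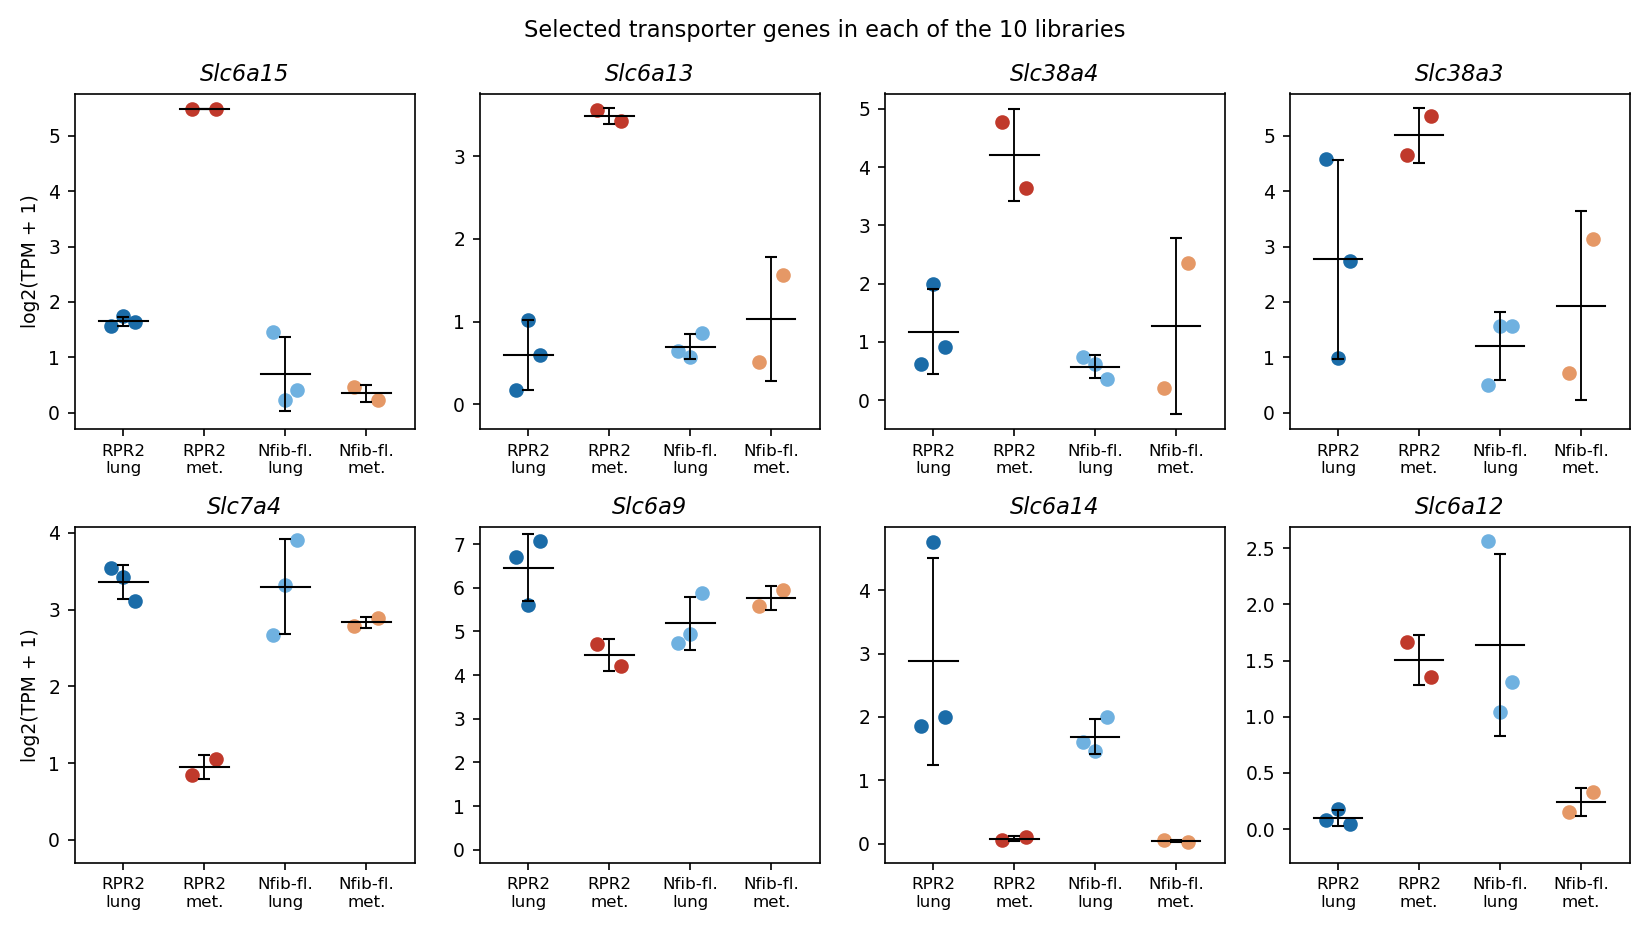
Level of 8 transporter genes as log2(TPM + 1) (vertical axes, which start and end at different values) in the 4 groups (horizontal axes); points are libraries, bars the group mean ± SD (n = 3 for lung tumors, 2 for metastases). Slc6a15, Slc6a13, Slc38a4 and Slc38a3 are highest in both RPR2 metastases, Slc7a4 and Slc6a9 are lowest there, Slc6a14 is near 0 in all 4 metastases, and Slc6a12 is higher in RPR2 metastases and Nfib-floxed lung tumors than in the other 2 groups.

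Of the glycine transporters, Slc6a9 (GlyT1), which takes up glycine in glia and many other cells, fell in RPR2 metastases. It lies on the plus strand of chr4:117834506-117875198. The 250 bases before its most upstream RefSeq start (GRCm38.p6, chr4:117835008-117835257, plus strand) are shown because they hold 1 of the motifs searched. The capitals mark the neurogenic E-box CAGATG, read here on the other strand, at position -247 from the start site.
Slc6a9: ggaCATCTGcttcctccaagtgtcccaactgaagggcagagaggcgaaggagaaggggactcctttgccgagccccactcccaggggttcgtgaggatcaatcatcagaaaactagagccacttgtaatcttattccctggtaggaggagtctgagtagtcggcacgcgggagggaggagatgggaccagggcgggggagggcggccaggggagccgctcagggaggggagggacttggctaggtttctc
Slc6a9 was at 104, 47.4 and 134 TPM in RPR2 lung tumors and at 25.4 and 17.5 TPM in the RPR2 metastases. Nfib-floxed lung tumors held 25.5, 29.9 and 57.7 TPM and Nfib-floxed metastases 46.6 and 61.1 TPM. The RPR2 metastases were the 2 lowest libraries, the higher of them only narrowly, and the order of tissues was the other way round in both Nfib-floxed mice with paired samples.

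Slc6a9 changed by -2.00 ± 0.48 in RPR2 metastases against lung tumors (adjusted p = 0.0365). This call held in 9 of 17 alternatives and was lost without the RPR2 metastasis of JHK1373 (0.116) or JHK1394 (0.255), without the RPR2 lung tumor of JHK1373 (0.102) or JHK1548 (0.109), and without either Nfib-floxed metastasis (0.0527 without JHK1398 and 0.0526 without JHK1399). Median centring also ended it (-1.75, adjusted p = 0.0549). The genotype difference was -1.28 ± 0.43 in lung tumors (adjusted p = 0.595) and 1.30 ± 0.52 in metastases (adjusted p = 0.301), and the interaction of 2.58 ± 0.68 did not pass (adjusted p = 0.189). Slc6a5 (GlyT2), the transporter of glycinergic neurons, was at 1.41, 2.94 and 1.59 TPM in RPR2 lung tumors and 3.64 and 0.392 TPM in RPR2 metastases. Each of the 5 Nfib-floxed libraries was lower than each RPR2 library, between 0.00967 and 0.202 TPM. Slc6a5, with a mean of 1.03 TPM, passed the filter of 1 TPM only through the RPR2 libraries. Its group means were 1.98 and 2.02 TPM in RPR2 lung tumors and metastases, and 0.0878 and 0.0298 TPM in Nfib-floxed ones. The share of all tested genes separated in this way was not taken. The genotype difference was -1.42 ± 0.49 in lung tumors (adjusted p = 0.595) and -1.30 ± 0.60 in metastases (adjusted p = 0.407).

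The system A carriers are sodium-coupled transporters of small neutral amino acids such as alanine and glutamine. Slc38a2 (SNAT2) and Slc38a1 (SNAT1) led the whole family, and the last of the 3, Slc38a4 (SNAT4), is a carrier of the liver. These 3 lie in a row on chromosome 15, with 44.5 kb between Slc38a1 and Slc38a2 and 295 kb between Slc38a2 and Slc38a4. Slc38a4 lies on the minus strand of chr15:96994820-97055956. The 250 bases before the most upstream of its 3 RefSeq starts (GRCm38.p6, chr15:97055957-97056206, minus strand) hold none of the motifs searched, so no base is in capitals. Another of its windows holds the NFI core TTGGCA, at position -77.
Slc38a4: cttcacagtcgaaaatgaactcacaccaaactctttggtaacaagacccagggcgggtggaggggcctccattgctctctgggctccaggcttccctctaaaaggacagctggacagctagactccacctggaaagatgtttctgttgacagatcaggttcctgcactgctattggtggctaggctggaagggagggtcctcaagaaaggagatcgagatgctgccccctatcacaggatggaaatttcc
Slc38a4 was at 0.529, 2.99 and 0.890 TPM in RPR2 lung tumors and at 26.3 and 11.5 TPM in the RPR2 metastases. Nfib-floxed lung tumors held 0.679, 0.543 and 0.280 TPM, while its 2 Nfib-floxed metastasis values were 0.152 (JHK1398) and 4.09 TPM (JHK1399). The RPR2 metastases were highest and the hepatocyte-marker-rich Nfib-floxed metastasis came next. The lung tumor of JHK1399, with 1243 TPM of hepatocyte markers, held 0.543 TPM, below the 2.99 TPM of JHK1394 with 431 TPM of these markers.

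Slc38a4 rose by 3.03 ± 0.69 in RPR2 metastases (adjusted p = 0.0278), a call held in 11 of 17 alternatives. It was lost without the RPR2 metastasis of JHK1373 (adjusted p = 0.232) or JHK1394 (0.0796) and without the RPR2 lung tumor of JHK1373 (0.0824) or JHK1548 (0.0795). The difference of -2.93 ± 0.75 between genotypes in metastases did not pass (adjusted p = 0.0789), although Slc38a4 was called there with a pseudocount of 5 and without the Nfib-floxed metastasis of JHK1399. Per 1000 TPM of hepatocyte markers, the RPR2 metastases held 3.03 and 1.30 TPM of Slc38a4 and the Nfib-floxed ones 1.59 and 1.60 TPM. The 2 genotypes overlapped on this ratio, but that of JHK1398 divides 0.152 TPM by a marker sum of 95.7 TPM, within the lung tumor range. In RPR2 metastases against lung tumors, 9 of the 10 hepatocyte markers rose. The part of hepatocyte RNA in Slc38a4 was not tested.

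**Figure D4:**
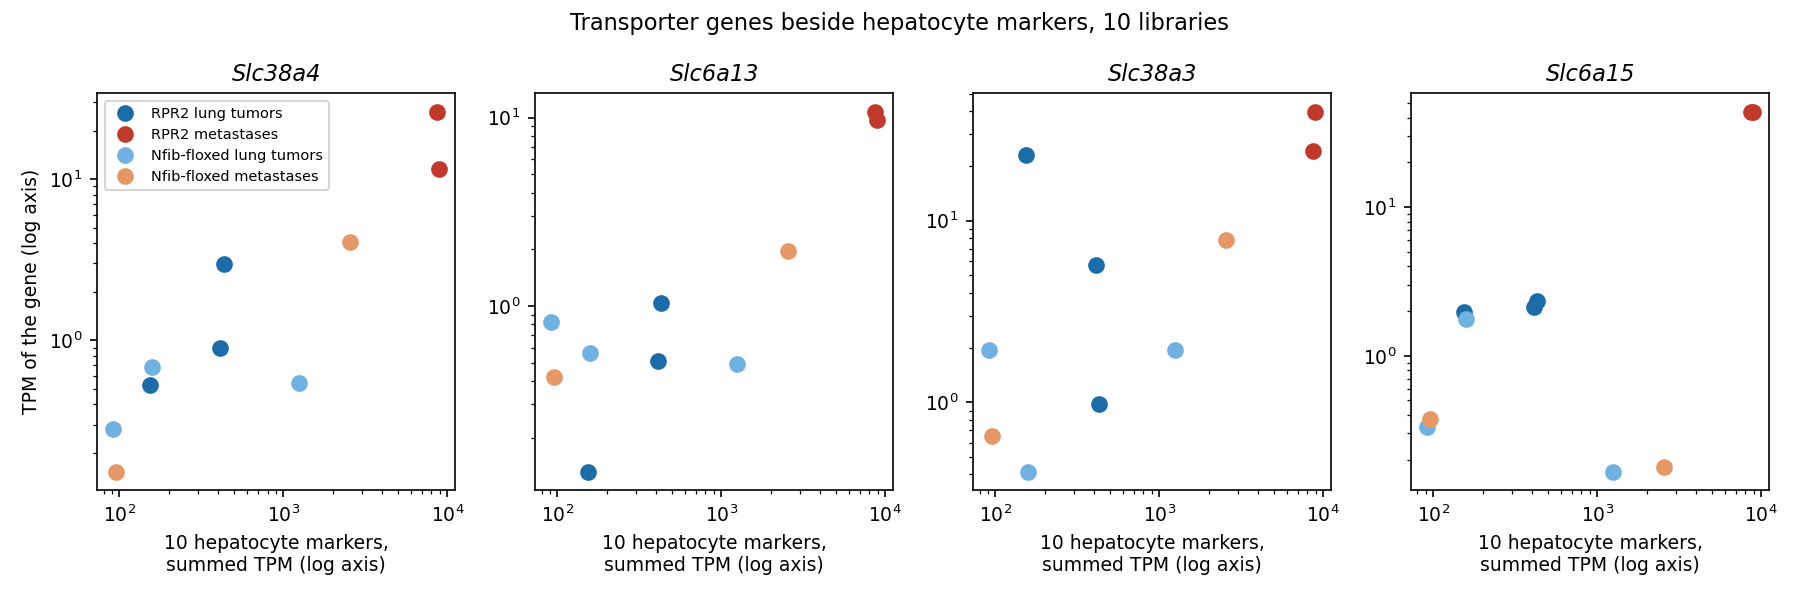
TPM of Slc38a4, Slc6a13, Slc38a3 and Slc6a15 (vertical log axes) against the summed TPM of 10 hepatocyte markers (horizontal log axes) in the 10 libraries, with points colored by group. The 2 RPR2 metastases lie at the top right in all panels. The Nfib-floxed metastasis of JHK1399 (2556 TPM of hepatocyte markers) holds 4.09 TPM of Slc38a4 and 1.95 TPM of Slc6a13 but 0.178 TPM of Slc6a15. The lung tumor of JHK1399 (1243 TPM of these markers) holds 0.543, 0.492 and 0.165 TPM of these genes.

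Slc38a1 and Slc38a2 kept their high level in all groups. Slc38a1 was at 105, 124 and 141 TPM in RPR2 lung tumors, 61.4 and 72.7 TPM in RPR2 metastases. In Nfib-floxed mice its level was 50.2, 87.0 and 123 TPM in lung tumors and 94.0 and 141 TPM in metastases. RPR2 metastases lay below RPR2 lung tumors, but the difference of -0.87 ± 0.37 did not pass (adjusted p = 0.241), nor did the interaction of 1.36 ± 0.53 (adjusted p = 0.407). Slc38a2 ran from 67.1 to 204 TPM, both extremes being Nfib-floxed lung tumors.

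The system N carriers move glutamine and histidine in exchange for protons. Slc38a3 (SNAT3), a glutamine carrier of liver, kidney and brain, was at 23.0, 0.984 and 5.67 TPM in RPR2 lung tumors, 24.2 and 39.9 TPM in RPR2 metastases. In Nfib-floxed mice its level was 0.413, 1.95 and 1.95 TPM in lung tumors and 0.651 and 7.84 TPM in metastases. The RPR2 metastases were highest but only narrowly above the RPR2 lung tumor of JHK1373, whose hepatocyte marker sum was 153 TPM. The difference was 2.24 ± 0.97 in RPR2 mice (adjusted p = 0.246) and -3.07 ± 1.07 between genotypes in metastases (adjusted p = 0.209). Slc38a5 (SNAT5) ran from 5.23 to 55.7 TPM, with its highest value in the Nfib-floxed lung tumor of JHK1399, and was not called.

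Of the other SLC38 genes, 5 of 6 were tested and none was called in any comparison. Slc38a9, the lysosomal carrier that reports arginine to mTORC1, ran from 4.46 to 24.0 TPM, and Slc38a7, a lysosomal glutamine carrier, from 7.54 to 15.7 TPM. Slc38a6 ran from 48.1 to 144 TPM and Slc38a10 from 51.0 to 90.3 TPM. Slc38a11 was less steady: it was at 46.2, 14.5 and 54.0 TPM in RPR2 lung tumors and 7.78 and 13.0 TPM in RPR2 metastases (-1.63 ± 0.80, adjusted p = 0.309), against 43.5 and 27.0 TPM in Nfib-floxed metastases. None of the 26 genes of amino acid sensing upstream of mTORC1 was called in any comparison.

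The cationic transporters take up arginine, lysine and ornithine, and 5 of 5 were tested. Slc7a4, a member of this subfamily without an established substrate, was the one called. It lies on the minus strand of chr16:17572018-17583214. It was at 10.6, 9.75 and 7.63 TPM in RPR2 lung tumors and at 0.787 and 1.08 TPM in the RPR2 metastases. Nfib-floxed lung tumors held 5.34, 9.01 and 14.0 TPM and Nfib-floxed metastases 5.88 and 6.40 TPM. The RPR2 metastases were the 2 lowest libraries, below all 8 others.

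Slc7a4 changed by -2.41 ± 0.45 in RPR2 metastases against lung tumors (adjusted p = 0.0108), a call held in 15 of 17 alternatives and lost without the RPR2 metastasis of JHK1373 (0.0912) or JHK1394 (0.0773). In Nfib-floxed against RPR2 metastases the difference was 1.89 ± 0.49 and did not pass (adjusted p = 0.0829), although Slc7a4 was called there under quantile normalization, under median centring and without the Nfib-floxed lung tumor of JHK1398. Slc7a1 (CAT1), the general arginine transporter, was at 39.0, 18.5 and 24.4 TPM in RPR2 lung tumors and at 6.22, 13.2 and 15.5 TPM in Nfib-floxed ones. These did not overlap, but the difference of -1.18 ± 0.43 did not pass (adjusted p = 0.595). Slc7a2 ran from 3.70 to 38.5 TPM, Slc7a3 from 3.40 to 24.5 TPM and Slc7a14 from 4.04 to 21.6 TPM, with no call. Of 12 genes of arginine and proline metabolism, 10 were tested. Prodh2, a hydroxyproline dehydrogenase of liver, rose in RPR2 metastases from 0.558 ± 0.303 TPM (SD, n = 3) to 12.4 ± 2.5 (n = 2). The log2 difference was 3.11 ± 0.55 (limma adjusted p = 0.00899). No other of the 10 was called in any comparison, and the part of hepatocyte RNA in Prodh2 was not tested.

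Heavy chain Slc3a2 (4F2hc, also CD98) carries light chains to the surface. It was at 97.0, 119 and 99.2 TPM in RPR2 lung tumors, 71.6 and 56.7 TPM in RPR2 metastases. In Nfib-floxed mice its level was 92.8, 80.3 and 86.0 TPM in lung tumors and 86.2 and 49.4 TPM in metastases. The RPR2 metastases lay below the RPR2 lung tumors without passing (-0.70 ± 0.30, adjusted p = 0.229). Slc3a1 (rBAT), the heavy chain of the renal cystine transporter, did not exceed 2.95 TPM.

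The 6 light chains that pair with Slc3a2 summed to 31.6 to 109 TPM. Slc7a5 (LAT1), the large neutral amino acid exchanger of many tumors, made up 27.8% to 48.6% of this sum and Slc7a6, an exchanger of cationic for neutral amino acids, 39.5% to 57.6%. The ratio of Slc3a2 to the summed light chains was 0.890 to 1.63 in 9 libraries and 2.94 in the Nfib-floxed lung tumor of JHK1398, where Slc3a2 stood at 92.8 TPM and the light chains at 31.6 TPM. Mitochondrial genes held 12.9% of that library's TPM. What set this ratio apart was not tested. No light chain was called in any comparison. Slc7a5 was at 52.9, 22.9 and 40.8 TPM in RPR2 lung tumors and at 8.78, 34.2 and 21.5 TPM in Nfib-floxed ones, which overlap (-0.93 ± 0.50, adjusted p = 0.640). Slc7a7 ran from 1.33 to 8.34 TPM, and Slc7a8 (LAT2) from 0.121 to 6.31 TPM with its lowest value in the Nfib-floxed metastasis of JHK1398.

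**Figure D5:**
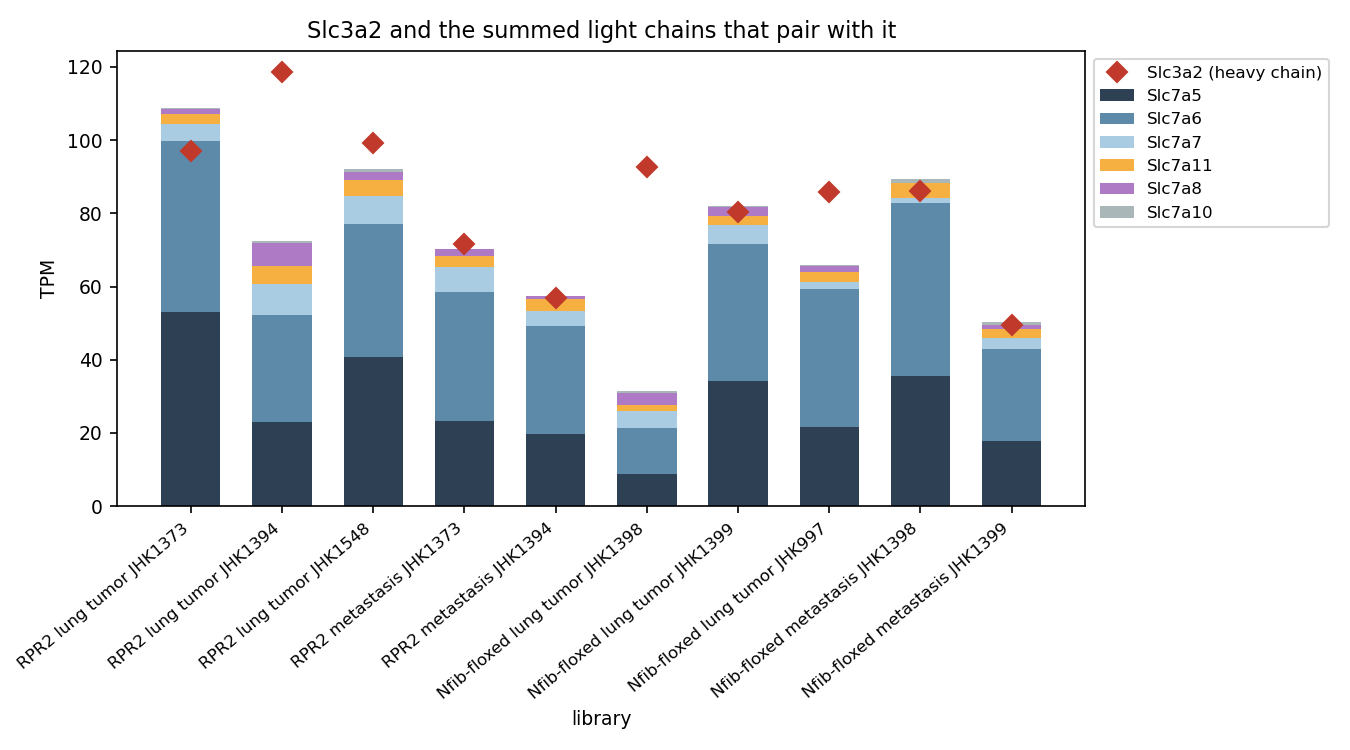
TPM of the heavy chain Slc3a2 (diamonds) and of its 6 light chains (stacked bars) on the vertical axis in each of the 10 libraries (horizontal axis). The diamond lies near the top of the bar in most libraries and far above it in the Nfib-floxed lung tumor of JHK1398, where the ratio is 2.94.

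Slc7a11 (xCT) imports cystine in exchange for glutamate and supplies glutathione synthesis. It is a textbook target of the stress factor ATF4. It lies on the minus strand of chr3:49892526-50443614. The 250 bases before its single RefSeq start (GRCm38.p6, chr3:50443614-50443863, minus strand) are shown for the elements they hold. The capitals mark 2 C/EBP-ATF elements TGATGNAA, at positions -66 and -47, the second read on the other strand.
Slc7a11: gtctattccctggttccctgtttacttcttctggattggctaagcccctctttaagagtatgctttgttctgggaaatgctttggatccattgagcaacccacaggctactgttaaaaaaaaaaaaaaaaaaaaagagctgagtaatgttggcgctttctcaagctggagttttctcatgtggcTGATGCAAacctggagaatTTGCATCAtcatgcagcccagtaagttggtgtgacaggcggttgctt
Slc7a11 was low and steady, at 2.79, 5.09 and 4.32 TPM in RPR2 lung tumors, 3.06 and 3.39 TPM in RPR2 metastases. In Nfib-floxed mice its level was 1.86, 2.64 and 2.49 TPM in lung tumors and 3.94 and 2.27 TPM in metastases. The groups of metastases overlapped, and every Nfib-floxed lung tumor was below every RPR2 one without a call. Of 15 genes of glutathione and cystine use, 14 were tested and none was called in any comparison.

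Of 22 genes of the ATF4 amino acid stress response, all were tested. In lung tumors 19 of the 22 were lower in Nfib-floxed than in RPR2 mice, as were 8928 of the 15503 tested genes. The median was -0.51 against -0.10 for all tested genes, and none was called. Whether this split depends on the lung tumor of JHK1398 was not examined. In metastases between genotypes 13 lay above 0 and 9 below, with a median of 0.13 against 0, and none was called. In RPR2 metastases against lung tumors 1 fell: Nupr1, a stress-induced nuclear protein, went from 213 ± 59 TPM (SD, n = 3) to 13.5 ± 3.9 (n = 2), a log2 difference of -3.87 ± 0.81 (limma adjusted p = 0.0193).

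The ASCT exchangers swap small neutral amino acids, and Slc1a5 (ASCT2) is a main glutamine entry route of tumor cells. Slc1a5 was at 70.3, 149 and 65.7 TPM in RPR2 lung tumors and at 11.5 and 41.5 TPM in RPR2 metastases. Nfib-floxed lung tumors held 87.7, 61.7 and 150 TPM and Nfib-floxed metastases 54.7 and 102 TPM. The RPR2 metastases were the 2 lowest libraries. The difference of -1.95 ± 0.58 in RPR2 mice did not pass (adjusted p = 0.0846), nor did that of 1.71 ± 0.64 between genotypes in metastases (adjusted p = 0.251). Slc1a4 (ASCT1), which also carries serine, ran from 6.64 to 38.9 TPM and was not called.

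The glutamate transporters were low. Slc1a1 (EAAT3), the only one tested, ran from 0.0275 to 7.26 TPM with its highest value in the RPR2 lung tumor of JHK1394. Slc1a2 (GLT-1), the main glutamate carrier of astrocytes and present in liver, exceeded 1 TPM only in the RPR2 metastases, at 1.34 and 1.23 TPM, and was not tested because its mean was below 1 TPM. With no filter on low values it was called in RPR2 metastases against lung tumors and between genotypes in metastases. Of 13 genes of glutamate and GABA synthesis, packaging and breakdown, 8 were tested and none was called in any comparison.

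Among 22 other amino acid and oligopeptide transporters, 18 were tested. Slc36a1, a proton-coupled amino acid transporter of lysosomes, fell in RPR2 metastases against lung tumors, from 45.0 ± 7.1 TPM (SD, n = 3) to 11.8 ± 1.8 (n = 2), a log2 difference of -1.84 ± 0.40 (limma adjusted p = 0.0241). No other gene of that list was called in any comparison. Of 8 accessory and trafficking partners of transporters, 7 were tested and none was called.

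Promoter windows of 300 bases, 250 before and 50 after a RefSeq start, were in the table used for 37 of the 52 genes (57 of 32851 windows). Slc6a15 and Slc7a4 were not among them. The NFI palindrome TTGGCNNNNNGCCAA, the full-length site of the factors that Nfib belongs to, was in 0 of the 57 windows and in 0.0365% of all windows. Its shorter core TTGGCA was in 10.5% of the transporter windows, with 1 of Slc38a4 among them, and 14.1% of all windows. The neurogenic E-box CAGATG, which basic helix-loop-helix factors bind, was in 15.8% and 17.2%. The HNF1 core GTTAAT was in 8.77% and 7.1%, with 1 window of Slc6a13 among them, and the HNF4 site CAAAGTCCA in 1.75% and 0.475%, the 1 window being that of Slc3a1. The C/EBP-ATF element TGATGNAA was in 8.77% against 3.97%, in windows of Slc1a4, Slc6a21, Slc7a11 and Slc7a7. Both strands were searched, and a palindrome may overlap a core. These matches are descriptions of letters in these windows.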

How the data were processed

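Per the labels' protocols, tumors of lung and liver were dissected at morbidity and frozen, and polyA RNA was sequenced with a NEBNext Ultra II library kit. Per the submitters' processing notes, the tools were Salmon 0.12.0, bcl2fastq 2.20 and R 4.1.0, with build GRCm38. Annotation, settings and strand: not given in the sources used here. Antisense overlaps could thus not be separated, and levels of near-identical genes are uncertain. The authors deposited 1 table of TPM per gene, in which each library sums to 1000000 and read depth is lost.

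Groups, mice and tissues came from the labels, and every library column was used. The 52 genes, their roles, the 8 other gene lists and the 12 cell type lists were chosen with earlier results of these data known. The study did not choose them. Positions are from GENCODE M21 (GRCm38) and promoter sequences from RefSeq (GRCm38.p6). The 2 SLC6 genes left out and 1 other listed gene are not reported here.

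Tests used limma 3.58.1 in R 4.3.3: 1 model of 4 groups on log2(TPM + 1), with a pseudocount of 1, a mean of at least 1 TPM, moderated variances with a mean trend, two-sided tests, 6 residual and 4.56 prior degrees of freedom, and Benjamini-Hochberg adjustment over 15503 genes at 0.05. The 5 comparisons were genotype in each tissue, tissue in each genotype, and their interaction. The procedure was tested on simulated data. Python 3.11.15, numpy 2.4.6, pandas 2.3.3 and matplotlib 3.10.9 did the rest.

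Genes named with values are those past the threshold, the 3 with the smallest p in each direction of a comparison where fewer passed, the 10 most abundant, and the tested genes of each role group; of other lists, those past the threshold. Lung tumor and metastasis of JHK1373, JHK1394, JHK1398 and JHK1399 are paired by animal. After removing group means, the 2 libraries of each mouse correlated at -0.023, -0.008, 0.043 and 0.049. Alternatives were pseudocounts of 0.1 and 5, no filter, quantile normalization, median centring, mouse as a replicate block, each library left out, and the lung tumors of JHK1394 and JHK1398 left out.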

Additional observations from a re-analysis of the deposited data

Results flagged for a closer look

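The genotype difference of Slc6a15, the neuronal carrier of branched-chain amino acids and proline, differed between tissues: the difference in metastases minus that in lung tumors was -4.193 on the log2(TPM + 1) scale, with an adjusted p of 0.0237 by limma. Both RPR2 metastases were at 44.0 TPM, the 3 RPR2 lung tumors at 1.98 to 2.34 TPM and the 5 Nfib-floxed libraries at 0.165 to 1.76 TPM. Over 17 alternatives the value ran from -5.02 to -2.89, with adjusted p from 0.00581 to 0.145.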

How the results depend on the processing

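No called difference of a transporter gene changed sign under any of the 17 alternatives. Between genotypes in metastases, 2 genes were called. Leaving out 1 library gave 1 to 3, and a pseudocount of 0.1 or dropping the lung tumors of both JHK1394 and JHK1398 gave 1. In RPR2 metastases against lung tumors, 5 were called and leaving out 1 library gave 1 to 5. The interaction called 1 gene, 0 to 1 with 1 library left out, and 0 with a pseudocount of 0.1, with no filter on low values, with median centring, and without those lung tumors. Where a group was left with 1 library, that library was assumed to vary like the other groups.

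With mouse as a replicate block (estimated correlation 0.051), the counts were 0, 2, 5, 0 and 1 in the 5 comparisons. The paired analysis thus changed no call of a transporter gene. Over all 15503 genes, RPR2 metastases against lung tumors gave 316 higher and 553 lower, and 336 and 644 with mouse as a replicate block. These counts were 407 and 408 under quantile normalization, 394 and 382 under median centring, and 352 and 381 with a pseudocount of 5. Slc6a15 was called in all 17 alternatives in both comparisons of RPR2 metastases. The other calls were lost in 2 to 11 of 17.

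With 2 metastases per genotype, TPM without depth and hepatocyte markers that moved with the groups, small differences were not detectable here. The profiles of both JHK1398 libraries and of the JHK997 lung tumor were nearest to an RPR2 lung tumor. A gene not called is not shown to be unchanged.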

Other observations

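The neighbouring Slc6a18 and Slc6a19, 1.72 kb apart on chromosome 13, were at most 0.045 and 2.55 TPM. The RPR2 metastases held 132 and 86.4 TPM of 5 Kupffer cell markers and the Nfib-floxed metastases 10.7 and 14.0 TPM, with 3 of the 5 called lower there (Vsig4, Marco and Clec4f). The 6 endothelial markers summed to 40.1 and 44.4 TPM in RPR2 metastases and to 350 and 1289 TPM in Nfib-floxed ones. Vwf alone of the 6 lay higher in the Nfib-floxed metastases, by 5.08 ± 0.62 (limma adjusted p = 0.00290), and the other 5 lay lower without passing.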
